A study of Mus musculus with 46 samples.

Results

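The 9 genes described here make and modify fatty acids: Acly, Acaca, Fasn, Elovl6, Scd1, Scd2, Fads1, Fads2 and their regulator Srebf1. They were chosen by gene symbol, and all 9 stand among the 9857 genes that have 1 entry in both the DMSO and the torin 1 count tables. Ribosome footprints and poly(A) transcripts were counted in EPP2 cells, a murine pancreatic cancer line that carries doxycycline-inducible Cas9 and that the study used as a clone grown from a single cell. The study asked how mTORC1 and the tRNA wobble-modifying enzyme Ctu1 act on translation. Control cells (genotype WT in the labels) and cells with inducible knockout of Ctu1 (Ctu1 iKO) were treated with DMSO or with 300 nM torin 1, an inhibitor of mTOR kinase, for 2 h, and knockout was induced with 300 ng/mL doxycycline 4 days before. The labels give the same doxycycline protocol for every library, while the study's methods name controls with guides against non-coding regions or without doxycycline, and they do not say which of these the WT libraries were. Footprint libraries numbered 6 for control with DMSO, 6 for control with torin 1, 5 for Ctu1 iKO with DMSO and 6 for Ctu1 iKO with torin 1. Transcripts were taken from replicates 1 to 3 of each group, which gave 12 libraries.

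Acetyl-CoA for fatty acid synthesis comes from citrate, which ATP citrate lyase (Acly) splits in the cytosol. Acetyl-CoA carboxylase (Acaca) turns it into malonyl-CoA, and fatty acid synthase (Fasn) builds palmitate from malonyl-CoA. Elovl6 elongates palmitate to stearate, the stearoyl-CoA desaturases Scd1 and Scd2 turn stearate into oleate, and Fads1 and Fads2 are desaturases of polyunsaturated fatty acids. Srebf1 encodes SREBP-1, the transcription factor that drives genes of fatty acid synthesis, and mTORC1 is known to promote its processing. Ctu1 belongs to the enzyme that thiolates the wobble uridine of tRNAs for the codons AAA, GAA and CAA.

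Library totals lay between 4585297 and 52775326 counts for the 23 footprint libraries and between 129519708 and 292974570 counts for the 12 transcript libraries. Of 8 markers of pancreatic duct and carcinoma epithelium, 5 were listed in the DMSO tables, while Cdh1, Krt7 and Cldn4 were not, and no acinar (of 5), adipocyte (of 5) or endothelial (of 3) marker was listed. The listed epithelial markers summed to 304 to 382 footprint CPM in control and 356 to 485 in Ctu1 iKO with DMSO. Most of this came from Krt8 (136 to 221 over the DMSO libraries of both genotypes) and Krt18 (105 to 155). Sox9 had 36.2 to 92.2, Krt19 had 8.36 to 20.1 and Epcam only 0.153 to 2.89. Of 4 immune markers, 1 (Cd68) was listed, at 1.27 to 2.2 CPM in control and 2.08 to 6.11 in Ctu1 iKO, and its part in the results was not tested. The targeted gene Ctu1, listed with DMSO only, had 2.67 ± 0.742 footprint counts per 1000000 counts (CPM) in control (SD, n = 6) and 1.82 ± 0.421 in Ctu1 iKO (SD, n = 5), a log2 difference of -0.54 (SE 0.29, edgeR adjusted p = 0.353). Its footprint CPM was 1.65, 2.47, 3.13, 3.78, 2.78 and 2.2 in control replicates 1 to 6 and 1.5, 1.35, 2.34, 1.75 and 2.16 in Ctu1 iKO replicates 1 to 5. Its transcript CPM in replicates 1 to 3 was 4.61, 4.42 and 4.51 in control and 4.5, 4.34 and 4.94 in Ctu1 iKO. The later replicates had 5.22, 4.13 and 4.42 transcript CPM in control and 3.39 and 3.2 in Ctu1 iKO, the latter below all 6 control libraries. Both of these Ctu1 iKO libraries, labelled DMSO, lay nearer to torin 1 on the treatment axis described below (0.92 and 0.81), so their labels are in doubt. Ctu1 footprints were lower in Ctu1 iKO at each of the 5 shared replicate numbers, but these numbers did not pair the footprint samples in this comparison (lowest r -0.10). Both assays' groups overlapped, and counts per gene do not show small changes at a cut site. Each library was also placed on the axis from DMSO (0) to torin 1 (1) that replicates 1 to 3 of its genotype and assay define over all genes, with the library itself left out of the axis. Of 11 transcript libraries of replicates 4 to 6, 6 lay nearer to the other treatment than to the one they are labelled with (torin 1 libraries between 0.15 and 0.20, DMSO libraries at 0.81 and 0.92), against 0 of 11 footprint libraries of these replicates. Of replicates 1 to 3, 3 of 12 footprint libraries and 1 of 12 transcript libraries, all labelled torin 1, lay below the midpoint (0.25 to 0.48). Transcript results are therefore given for replicates 1 to 3, and where a call was gained or lost, or a direction turned by more than its SE, with all replicates as labelled, that value stands beside it.

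Sequences shared between genes touch the counts of 5 members. Of all stretches of 28 bases in the coding sequence, 77.8% were shared with another gene's transcript for Acaca (Gm5182 and Acacb), 48.8% for Elovl6 (Gm11295), 40.9% for Scd1 and 35.4% for Scd2 (each other, Scd3 and Scd4), 2.06% for Fads2 (Fads3) and none for Acly, Fasn, Fads1 or Srebf1. The coding sequences of Scd1 and Scd2 were 90.4% identical, so how reads are split between them, and their levels and those of Acaca and Elovl6, are uncertain. The longest run they have in common, 147 bases at positions 523 to 669 of the Scd1 and 532 to 678 of the Scd2 coding sequence, is shown because no footprint inside it can be given to either gene:
Scd1 and Scd2: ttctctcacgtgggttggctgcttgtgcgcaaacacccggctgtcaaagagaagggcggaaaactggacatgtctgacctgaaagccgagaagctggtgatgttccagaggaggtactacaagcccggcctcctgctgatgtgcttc

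Promoter windows from RefSeq (GRCm38.p6, 250 bases before to 50 after a start) were matched for 6 of the 9 genes. The sterol regulatory element TCACNCCAC, searched on both strands, was in none of their 8 windows and in 1.44% of all genes, the E-box CACGTG was in none and in 8.09% of all genes, the Sp1 box GGGCGG was in the windows of 3 of 6 and of 38.2% of all genes, and the NF-Y box CCAAT was in those of 3 of 6 (Fasn, Srebf1 and Acly) and of 41.1% of all genes. A match or its absence describes these letters in these windows only. The 250 bases before the start of Fasn and of both Srebf1 starts with an NF-Y box are shown because these genes gave the largest log2 footprint differences in each direction with torin 1, and because gene counts pool the Srebf1 starts. Capitals mark NF-Y boxes on either strand:
Fasn, chr11:120824548-120824797, minus strand: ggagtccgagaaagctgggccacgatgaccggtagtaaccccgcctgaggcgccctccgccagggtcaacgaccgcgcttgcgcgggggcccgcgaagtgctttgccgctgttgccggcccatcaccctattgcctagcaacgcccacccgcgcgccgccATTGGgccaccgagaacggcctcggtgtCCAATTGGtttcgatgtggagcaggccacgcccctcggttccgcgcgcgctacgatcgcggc
Srebf1, chr11:60222582-60222831, minus strand: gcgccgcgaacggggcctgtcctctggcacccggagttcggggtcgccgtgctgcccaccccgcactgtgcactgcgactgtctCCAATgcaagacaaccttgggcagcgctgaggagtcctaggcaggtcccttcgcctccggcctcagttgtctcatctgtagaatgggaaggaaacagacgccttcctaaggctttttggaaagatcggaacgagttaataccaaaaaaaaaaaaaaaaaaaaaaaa
Srebf1, chr11:60210472-60210721, minus strand: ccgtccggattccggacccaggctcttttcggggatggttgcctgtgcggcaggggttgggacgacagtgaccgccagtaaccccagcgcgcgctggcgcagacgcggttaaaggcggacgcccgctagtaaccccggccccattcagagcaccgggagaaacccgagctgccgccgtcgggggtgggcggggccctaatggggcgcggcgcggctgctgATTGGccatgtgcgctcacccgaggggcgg

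Per kb of coding sequence, Scd2 had by far the most footprints of the 9 genes in control cells with DMSO, at 696 ± 84.0 CPM per kb (SD, n = 6). It was followed by Acly at 169.9 ± 21, Scd1 at 141 ± 19.9, Elovl6 at 134 ± 10.9, Fasn at 126 ± 28.6 and Fads1 at 99.3 ± 16.7, of which Scd1, Elovl6 and Fasn differed by less than their SDs and Fasn and Fads1 by less than that of Fasn. Fads2 had 49.5 ± 3.39, and Acaca and Srebf1 stood last at 24.6 ± 4.86 and 23.3 ± 3.71, a difference smaller than their SD. With torin 1, Fasn moved from the fifth to the sixth place in control, at 68.6 ± 15.8 CPM per kb, behind Fads1 at 90.6 ± 20.8. Per kb of transcript in control with DMSO, the order of poly(A) RNA was Scd2, Acly, Fasn, Fads1, Scd1, Fads2, Elovl6 level with Srebf1, and Acaca, from 170.1 ± 16.5 down to 14.4 ± 1.41 CPM per kb (SD, n = 3).

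**Figure D1:**
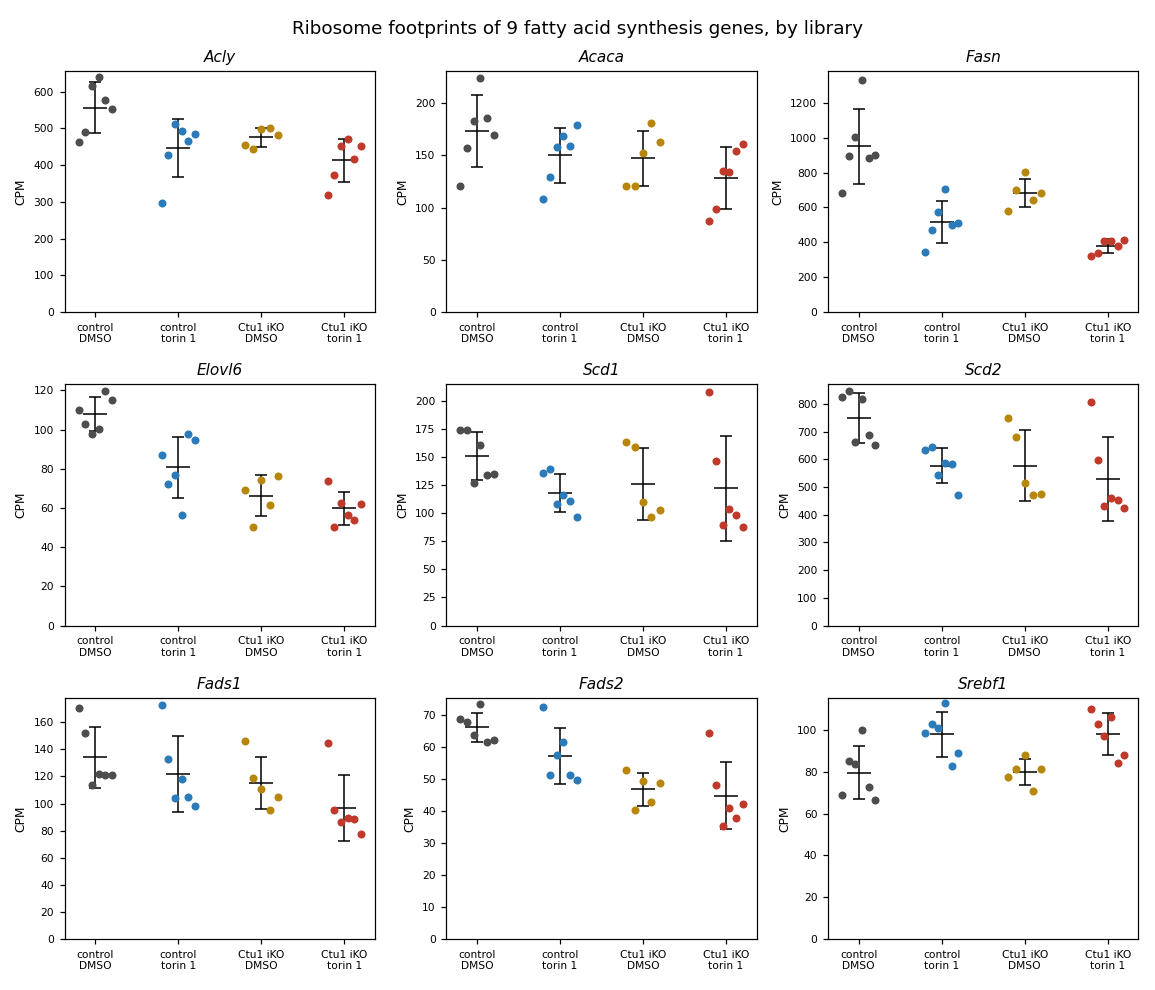
Footprint CPM (y axis, linear, from 0) of each gene in the 23 libraries, by genotype and treatment; points are libraries in the order of their replicate number, bars the mean ± SD (n = 6, 6, 5 and 6 from left to right). Fasn lies lower with torin 1 in both genotypes, Elovl6 and Fads2 lie lower in Ctu1 iKO with DMSO than in every control library with DMSO, and Srebf1 lies higher with torin 1 on average.

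In control cells, 2 h of torin 1 lowered the footprints of Fasn 1.84-fold and those of the desaturase Scd2 1.3-fold in the fit without a replicate term, in which no member was called higher. These were 2 of the 9 genes, where 4.33% of all 9856 genes tested were called lower (edgeR, adjusted p-value under 0.05, the threshold for every call here). The log2 difference was below 0 for 8 of the 9, with a median of -0.32, beside a median of 0.01 over all genes, and the exception was Srebf1. CPM gives each gene relative to all listed genes, so that a change common to all genes cannot be seen, and in bulk cultures fewer cells with a transcript and less RNA per cell cannot be told apart. The replicate numbers paired these libraries, since each of the 6 pairs deviated together from its group means (r between 0.44 and 0.64 over genes). With the replicate number as a block, 7 members were called, Acly, Acaca, Fasn, Elovl6, Scd1 and Scd2 lower and Srebf1 higher, where 20.5% of all genes were called.

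Fasn, at chr11:120805846-120824547 on the minus strand of GRCm38, had between 684 and 1333 footprint CPM in control with DMSO (median 896) and between 343 and 703 with torin 1 (median 503). The highest torin 1 library overlapped only the lowest DMSO library. Each library with torin 1 lay between 0.82 and 1.0 log2 units below the DMSO library of its number, a narrower range than either group's. The fitted log2 change was -0.88 (SE 0.17, adjusted p = 0.00367), and it kept its call in all 12 fits that left out a library, from -0.99 to -0.76. In the fit of replicates 1 to 3 alone the log2 difference was -0.89 with adjusted p = 0.108.

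Scd2 (chr19:44293674-44306864, plus strand) had between 653 and 848 footprint CPM in control with DMSO (median 754) and between 473 and 644 with torin 1 (median 585), so the groups did not overlap. Its log2 change was -0.38 (SE 0.10, adjusted p = 0.0292). The call was lost in 6 of 12 fits, those without control DMSO replicates 1, 2 or 4 or without control torin 1 replicates 3, 5 or 6 (adjusted p from 0.0539 to 0.0693), and with library totals in place of TMM factors (log2 difference -0.29, adjusted p = 0.0734). It was also lost with all 4 groups in 1 fit (-0.38, adjusted p = 0.144), where Elovl6 was called in its place, and in replicates 1 to 3 alone (-0.36, adjusted p = 0.392). Scd1 (chr19:44394455-44407879, minus strand) had between 127 and 174 CPM with DMSO and between 96.4 and 139 with torin 1, with a log2 difference of -0.36 (SE 0.11, adjusted p = 0.075). With the block its log2 change was -0.36 as well (SE 0.05, adjusted p = 0.000839).

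Elovl6 (chr3:129532355-129638495, plus strand) ranged from 97.7 to 119.6 footprint CPM in control with DMSO and from 56.4 to 97.6 with torin 1. These groups met without overlapping, and the log2 difference of -0.41 (SE 0.12) missed the threshold at adjusted p = 0.0512, while with the block it was -0.43 (SE 0.08, adjusted p = 0.00222). Acly (chr11:100476353-100528000, minus strand) had a median of 565 CPM with DMSO and 475 with torin 1, a log2 difference of -0.32 (SE 0.13, adjusted p = 0.157, and -0.33 with the block at adjusted p = 0.00272). Acaca (chr11:84129672-84401651, plus strand) had medians of 176 and 158 CPM, a log2 difference of -0.20 (SE 0.14, adjusted p = 0.472, with the block adjusted p = 0.0433). Among the remaining desaturases, Fads1 (chr19:10182888-10196877, plus strand) gave -0.13 (SE 0.14, adjusted p = 0.675) and Fads2 (chr19:10062765-10101746, minus strand) gave -0.21 (SE 0.10, adjusted p = 0.264), and neither was called with the block.

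Srebf1 (chr11:60199089-60222581, minus strand) ran the other way. Its footprint CPM in control was 69.0, 85.1, 83.7, 100, 72.7 and 66.4 with DMSO and 98.5, 103, 101, 113, 82.8 and 89.0 with torin 1, in the order of replicates 1 to 6. Every torin 1 library exceeded the DMSO library of its number, by 0.18 to 0.51 log2 units, although the groups overlapped. The log2 difference was 0.30 (SE 0.11, adjusted p = 0.132). It passed the threshold with the block at 0.31 (SE 0.06, adjusted p = 0.00598) and with library totals at 0.39 (adjusted p = 0.0273), a scaling that moved the median of all genes in this comparison from 0.01 to 0.10.

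Transcripts in the same control cells gave Fasn and Scd2 as the members that fell, 2 of 9 where 7.4% of 9617 genes were called lower. Fasn transcripts had 544, 656 and 725 CPM in replicates 1 to 3 with DMSO and 360.3, 483 and 478 with torin 1, and the groups did not overlap. Their log2 change was -0.56 (SE 0.15, adjusted p = 0.0456). Scd2 transcripts had 971, 988 and 824 CPM with DMSO and 671, 681 and 626 with torin 1, a log2 change of -0.51 (SE 0.09, adjusted p = 0.010). The Fasn call was lost without control DMSO replicates 2 or 3 or control torin 1 replicates 1 or 2 (adjusted p from 0.0921 to 0.148), and that of Scd2 without control DMSO replicate 2 (adjusted p = 0.0545).

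The other transcripts differed by less. The median log2 difference of the 9 genes was -0.08, beside 0.00 over all genes, and Acly (-0.08), Acaca (-0.04) and Scd1 (-0.03) stayed within 1 SE of 0. Elovl6 transcripts had 143, 147 and 131 CPM with DMSO and 122, 122 and 104 with torin 1, with a log2 difference of -0.29 (SE 0.08, adjusted p = 0.0637). Srebf1 transcripts had 93.5, 105 and 106 CPM with DMSO and 122, 119 and 119 with torin 1, without overlap, and the log2 difference was 0.22 (SE 0.07, adjusted p = 0.0857). The replicate numbers paired the transcript libraries (r between 0.53 and 0.84). With the block, 6 members were called, Fasn, Elovl6, Scd2 and Fads2 lower and Fads1 and Srebf1 higher, where 43.7% of all genes were called. The blocked values were -0.29 for Elovl6 (adjusted p = 0.000251), -0.16 for Fads2 (adjusted p = 0.022), 0.14 for Fads1 (adjusted p = 0.0278) and 0.23 for Srebf1 (adjusted p = 0.00467). With all replicates as labelled, Elovl6 (-0.42, adjusted p = 0.00575) and Fads2 (-0.27, adjusted p = 0.0442) were called beside Fasn and Scd2.

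**Figure D2:**
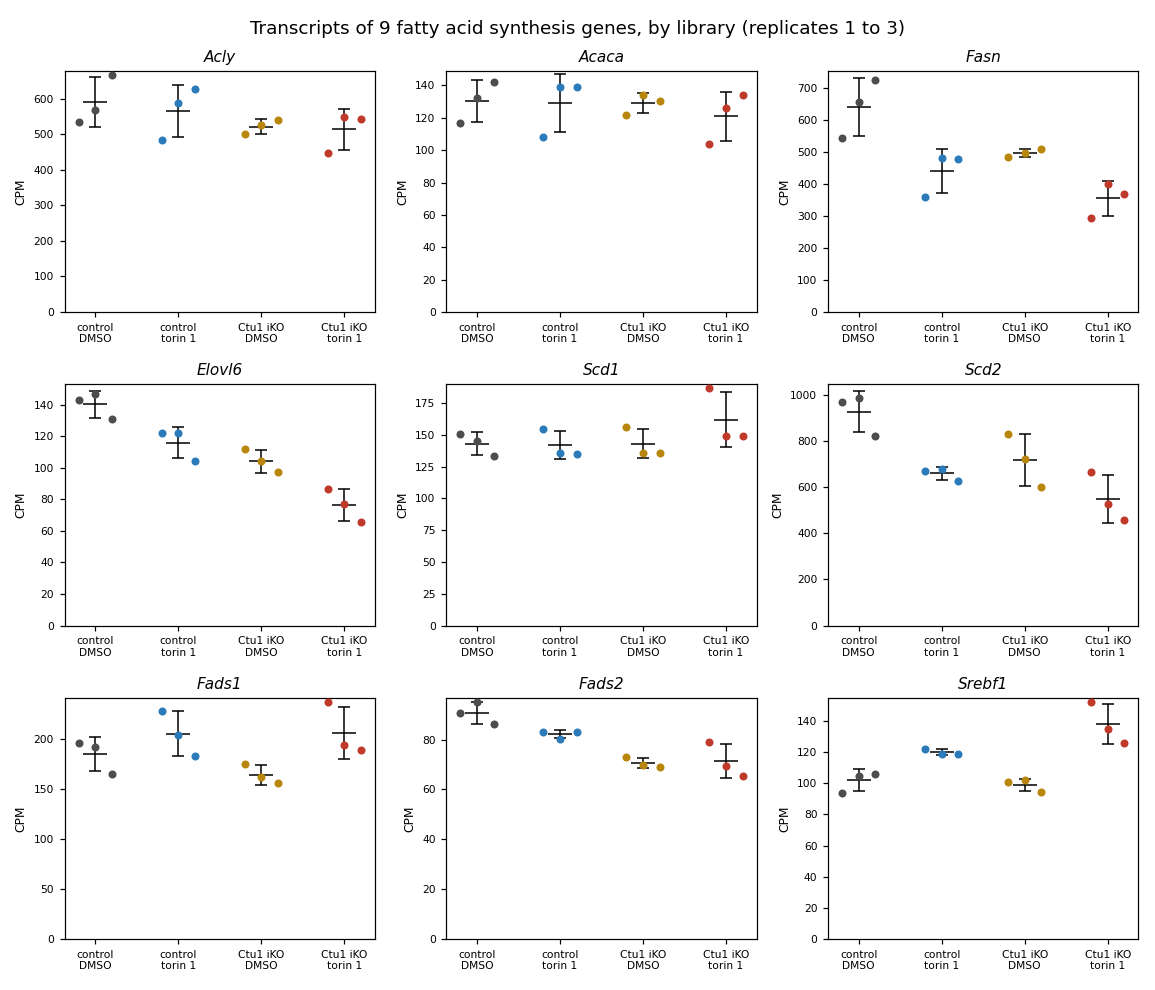
Transcript CPM (y axis, linear, from 0) of each gene in the 12 libraries of replicates 1 to 3, by genotype and treatment; points are libraries in the order of their replicate number, bars the mean ± SD (n = 3). Means of Fasn and Scd2 are lower and that of Srebf1 is higher with torin 1 in both genotypes, and Elovl6 and Fads2 lie lower in Ctu1 iKO with DMSO than in control with DMSO.

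In Ctu1 iKO cells, torin 1 lowered the footprints of Fasn 1.81-fold, and Fasn was the only member called of 9, where 4.52% of 9855 genes were called lower. Fasn had 578, 697, 800.2, 645 and 684 footprint CPM with DMSO and between 324 and 413 with torin 1 (median 392), so that all 6 torin 1 libraries lay below all 5 DMSO libraries. The log2 change was -0.85 (SE 0.10, adjusted p = 7.07e-05), and it was called in all 11 fits that left out a library and in replicates 1 to 3 alone (-0.97, adjusted p = 0.0186). Scd2, which had been lower in control, had 748, 682, 516, 471 and 476 CPM with DMSO and between 423 and 807 with torin 1, a log2 difference of -0.14 (SE 0.19, adjusted p = 0.737).

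Replicates 1 and 2 held the highest values of Scd1 and Scd2 in both treatments, in control as in Ctu1 iKO. In control, Scd1 had 174 and 174 footprint CPM in these replicates with DMSO against 127 to 161 in the later ones, and 136 and 139 with torin 1 against 96.4 to 116. In Ctu1 iKO it had 163 and 159 CPM in these replicates with DMSO against 96.5 to 110.2 in the later ones, and 208 and 146 with torin 1 against 87.5 to 104. The log2 difference of Scd1 with torin 1 was -0.06 (SE 0.23, adjusted p = 0.921), and a term for replicates 1 and 2 against the later ones left it uncalled (adjusted p = 0.859). Fads1 showed the same high value of replicate 1, also in control (170.5 CPM with DMSO and 173 with torin 1). In Ctu1 iKO it had 146, 119, 111, 95.5 and 105 CPM with DMSO and 145, 95.2, 86.1, 89.5, 88.6 and 77.2 with torin 1. Its log2 difference of -0.26 (SE 0.16, adjusted p = 0.388) became -0.41 (adjusted p = 0.0438) without Ctu1 iKO torin 1 replicate 1. Acly (-0.21), Acaca (-0.20), Elovl6 (-0.16) and Fads2 (-0.08) were not called either without that term, and the median of the 9 genes was -0.16, beside 0.02 over all genes. Srebf1 footprints again differed upward, with 77.5, 81.4, 87.9, 71.0 and 81.4 CPM with DMSO and between 84.2 and 109.8 with torin 1, at a log2 difference of 0.29 (SE 0.10, adjusted p = 0.108). With library totals it was called at 0.38 (adjusted p = 0.0269), where the median of all genes stood at 0.11. With the term for replicates 1 and 2, Acly was called lower (-0.24, adjusted p = 0.046) and Srebf1 higher (0.29, adjusted p = 0.048) beside Fasn. These were 3 of 9 members, where 13.9% of all genes were called.

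Among transcripts of Ctu1 iKO cells, Srebf1 rose with torin 1 and no other member was called, 1 of 9 where 3.73% of 9619 genes were called higher. Srebf1 had 101, 102 and 94.7 CPM with DMSO and 152, 135 and 126 with torin 1. The groups were well apart, and the log2 change was 0.47 (SE 0.09, adjusted p = 0.0257), or 1.39-fold. The call was lost without any of the Ctu1 iKO DMSO replicates 1, 2 or 3 or torin 1 replicates 1 or 2 (adjusted p from 0.055 to 0.105). With all replicates as labelled, which bring in 4 of the later libraries that lie nearer to the other treatment, the log2 difference was 0.05 (adjusted p = 0.993).

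Fasn transcripts had 486, 497 and 511 CPM with DMSO and 295, 402 and 371 with torin 1 in Ctu1 iKO cells, without overlap, at a log2 difference of -0.48 (SE 0.12, adjusted p = 0.0536). Elovl6 transcripts had 112, 104 and 97.3 CPM against 86.3, 77.2 and 65.9, at -0.45 (SE 0.12, adjusted p = 0.0605). Both differences missed the threshold and passed it with library totals, at -0.54 (adjusted p = 0.0338) and -0.51 (adjusted p = 0.0412). Fads1 transcripts differed upward, from 175, 162 and 156 CPM to 237, 194 and 189, at 0.33 (SE 0.11, adjusted p = 0.119). With the replicate number as a block (r of the pairs between 0.65 and 0.77), Fasn, Elovl6 and Scd2 were called lower and Fads1 and Srebf1 higher, 5 of 9 members where 35.1% of all genes were called. The blocked log2 changes were -0.50 for Fasn (adjusted p = 0.00151), -0.45 for Elovl6 (adjusted p = 0.00097), -0.39 for Scd2 (adjusted p = 0.001) and 0.32 for Fads1 (adjusted p = 0.00491).

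The comparisons share libraries (the DMSO libraries of a genotype serve both its torin 1 comparison and the comparison of genotypes), so their values are not independent. Whether torin 1 acted differently on the 9 genes in the genotypes was tested as an interaction. No member was called in footprints, where 0.639% of 9857 genes were, nor in transcripts, where 0.0% of 9616 genes were (140 at an unadjusted p under 0.05, and 3 by DESeq2). At an unadjusted p under 0.05, no member passed in footprints, where 4.67% of all genes did. In transcripts 1 passed (Srebf1, log2 difference of the changes 0.26, SE 0.11), where 1.46% did. DESeq2 called no member in either, beside 1.11% of all genes in footprints and 0.0312% in transcripts. With all replicates as labelled, the transcript value of Srebf1 was -0.04 (adjusted p = 0.986), and that of Elovl6 went from -0.14 to 0.42 (adjusted p = 0.946). The largest footprint differences of the torin 1 change, Ctu1 iKO minus control, were 0.31 for Scd1 (SE 0.27), 0.26 for Elovl6 (SE 0.18) and 0.25 for Scd2 (SE 0.21), and that of Fasn was 0.03 (SE 0.21). The loss of the Scd2 call in Ctu1 iKO is therefore not shown to be a difference between the genotypes.

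**Figure D3:**
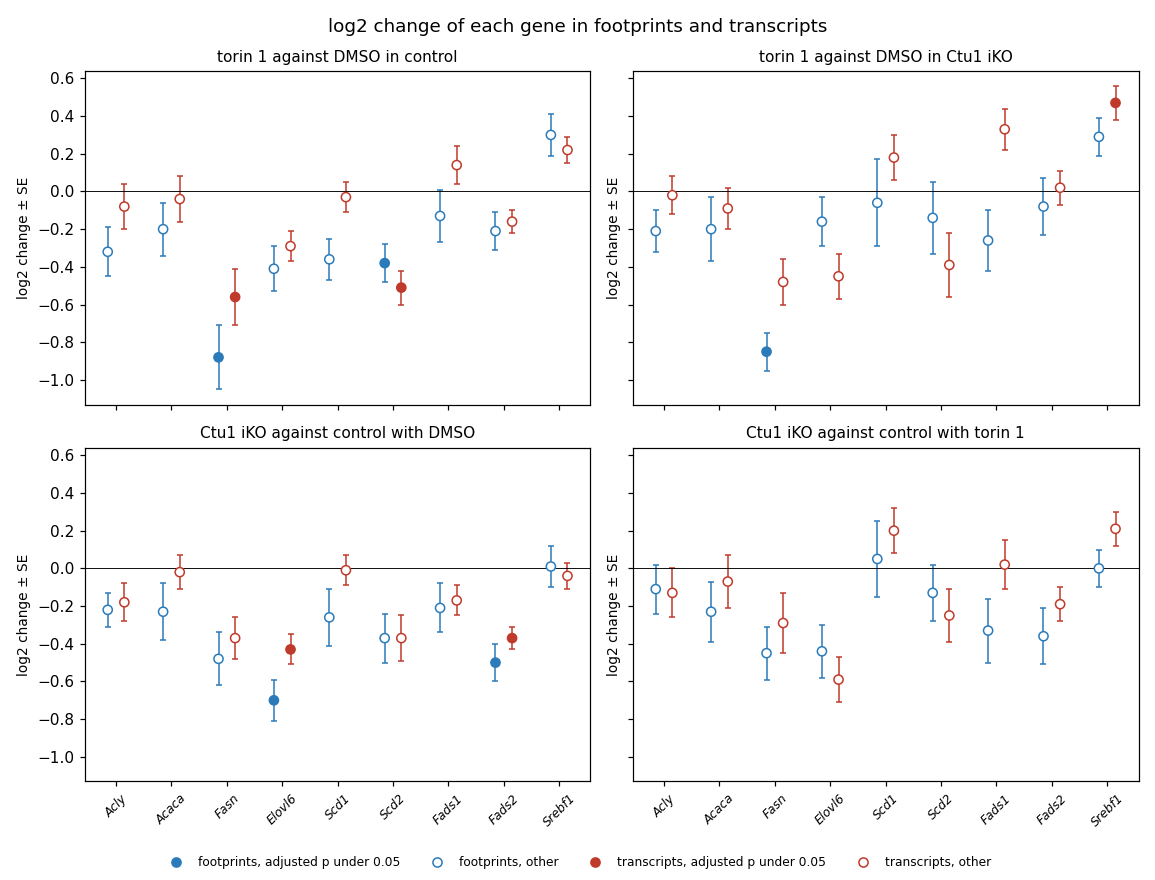
Fitted log2 change (y axis, bars ± SE) of each gene in the 4 comparisons, for footprints (blue) and transcripts (red, replicates 1 to 3); filled points have an edgeR adjusted p under 0.05. Fasn footprints are the lowest point with torin 1 in both genotypes (-0.88 and -0.85), and Elovl6 footprints are the lowest point of the comparison of genotypes with DMSO (-0.70).

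Without torin 1, Ctu1 iKO cells had 1.62-fold fewer footprints of the elongase Elovl6 and 1.41-fold fewer of the desaturase Fads2 than control cells. These were 2 of 9 members, where 1.04% of 10397 genes were called lower, and none was called higher. Elovl6 had 69.2, 50.5, 74.0, 61.5 and 76.4 footprint CPM in Ctu1 iKO and 110.1, 103, 97.7, 100.5, 119.6 and 115 in control, and the groups were apart. Its log2 change was -0.70 (SE 0.11, adjusted p = 0.00649). Fads2 had 52.6, 40.3, 49.4, 42.6 and 48.7 CPM in Ctu1 iKO and between 61.6 and 73.3 in control (median 65.6), again without overlap, and its log2 change was -0.50 (SE 0.10, adjusted p = 0.0164). Both calls held in all 11 fits that left out a library. In replicates 1 to 3 alone the log2 differences were -0.68 (adjusted p = 0.247) and -0.49 (adjusted p = 0.326).

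Of the other members, 6 had footprint log2 differences below 0. Fasn had 578, 697, 800.2, 645 and 684 CPM in Ctu1 iKO and between 684 and 1333 in control, at -0.48 (SE 0.14, adjusted p = 0.0857), and it was called without control DMSO replicate 1 (-0.55, adjusted p = 0.0358) and by DESeq2 (adjusted p = 0.0219). Scd2 gave -0.37 (SE 0.13, adjusted p = 0.157), with groups that overlapped through replicates 1 and 2 of Ctu1 iKO. With a term for replicates 1 and 2 against the later ones, Scd2 (-0.42, adjusted p = 0.00876), Scd1 (-0.31, adjusted p = 0.042) and Fasn (-0.45, adjusted p = 0.0379) were called lower beside Elovl6 and Fads2. These were 5 of 9 members, where 7.09% of all genes were called. Without that term, Acly (-0.22), Acaca (-0.23), Scd1 (-0.26) and Fads1 (-0.21) had adjusted p-values between 0.227 and 0.467, and Srebf1 stood at 0.01 (SE 0.11, adjusted p = 0.976). The median of the 9 genes was -0.26, beside 0.00 over all genes.

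The same pair of genes fell at the transcript level, 2 of 9 where 1.8% of 10119 genes were called lower. Elovl6 transcripts had 112, 104 and 97.3 CPM in Ctu1 iKO and 143, 147 and 131 in control, a log2 change of -0.43 (SE 0.08, adjusted p = 0.0277). Fads2 transcripts had 72.9, 69.7 and 68.9 CPM in Ctu1 iKO and 90.5, 95.2 and 86.2 in control, a log2 change of -0.37 (SE 0.06, adjusted p = 0.0273). Neither gene's groups overlapped, but with 3 libraries a group both calls were lost without control DMSO replicates 1 or 2 or Ctu1 iKO DMSO replicates 1 or 2 (adjusted p from 0.067 to 0.144).

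All 9 transcripts had a log2 difference below 0 with DMSO, with a median of -0.18 beside 0.00 over all genes. Fasn gave -0.37 (SE 0.11, adjusted p = 0.089) and Scd2 -0.37 (SE 0.12, adjusted p = 0.117), while Acaca (-0.02), Scd1 (-0.01) and Srebf1 (-0.04) stayed within 1 SE of 0. With the replicate number as a block (r of the pairs between 0.49 and 0.65), Fasn, Elovl6, Scd2, Fads1 and Fads2 were called lower, 5 of 9 members where 28% of all genes were called. The blocked values were -0.36 for Fasn (adjusted p = 0.00699), -0.38 for Scd2 (adjusted p = 0.00365) and -0.17 for Fads1 (adjusted p = 0.0416). With all replicates as labelled, Fasn (-0.61, adjusted p = 0.00215) and Scd2 (-0.53, adjusted p = 0.0148) were called beside Elovl6 and Fads2, and Srebf1 stood above 0 at 0.22 (adjusted p = 0.157).

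With torin 1 in both genotypes, no footprint difference of a member between Ctu1 iKO and control was called by edgeR, where 4.83% of 9913 genes were called. At an unadjusted p under 0.05, 3 members and 18.8% of all genes passed, and DESeq2 called 8.49% of all genes and 2 members, Fasn (adjusted p = 0.0327) and Elovl6 (adjusted p = 0.0417), both lower. Fasn had between 324 and 413 footprint CPM in Ctu1 iKO (median 392) and between 343 and 703 in control (median 503), a log2 difference of -0.45 (SE 0.14, adjusted p = 0.0868). Elovl6 had medians of 59.2 and 81.8 CPM, a log2 difference of -0.44 (SE 0.14, adjusted p = 0.0923), and Fads2 gave -0.36 (SE 0.15, adjusted p = 0.202). All 6 Ctu1 iKO libraries lay below the control library of their number for Fasn, Elovl6, Fads1, Fads2 and Acaca, though Elovl6 was level in replicate 4 (56.3 against 56.4 CPM). The share of all genes with such a pattern was not counted, so this is a description only. The median of the 9 genes was -0.23, beside 0.01 over all genes.

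Replicate numbers paired these footprint libraries (r between 0.32 and 0.55), and the block called 5 members, all lower, where 14.4% of all genes were called. They were Fasn at -0.42 (adjusted p = 0.00676), Fads1 at -0.33 (adjusted p = 0.00727), Elovl6 at -0.42 (adjusted p = 0.0249), Fads2 at -0.37 (adjusted p = 0.0301) and Acaca at -0.24 (adjusted p = 0.0363). Srebf1 stood at 0.00 with and without the block. Leaving out Ctu1 iKO torin 1 replicate 1, the library with the highest Scd1, Scd2, Fads1 and Fads2 of its group, led to 2 calls, Elovl6 (-0.50, adjusted p = 0.0454) and Fads2 (-0.49, adjusted p = 0.0346). That fit kept its pair, control torin 1 replicate 1, which likewise had the highest Fads1 (173 CPM) and Fads2 (72.5 CPM) of its group. Fasn was called without control torin 1 replicate 1 (-0.54, adjusted p = 0.0156) and Elovl6 without control torin 1 replicate 4 (-0.52, adjusted p = 0.0354).

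Transcripts with torin 1 gave no called member either, where 1.31% of 9650 genes were called, while 1 member and 20% of all genes passed at an unadjusted p under 0.05 and DESeq2 called 1 member and 11.3% of all genes, the member being Elovl6 in both cases. Elovl6 transcripts had 86.3, 77.2 and 65.9 CPM in Ctu1 iKO and 122, 122 and 104 in control, without overlap, at a log2 difference of -0.59 (SE 0.12, adjusted p = 0.0681). Scd1 (0.20, SE 0.12) and Srebf1 (0.21, SE 0.09) were the members with the largest differences above 0. With the block (r of the pairs between 0.65 and 0.81), Fasn, Elovl6 and Scd2 were called lower and Scd1 and Srebf1 higher, 5 of 9 members where 32.8% of all genes were called. The blocked values were -0.59 for Elovl6 (adjusted p = 0.00048), -0.29 for Fasn (adjusted p = 0.00389), -0.26 for Scd2 (adjusted p = 0.034), 0.19 for Scd1 (adjusted p = 0.0293) and 0.21 for Srebf1 (adjusted p = 0.0334).

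Translational efficiency, the ratio of footprints to transcripts in the same cultures of replicates 1 to 3, was called changed for none of the 9 genes in any comparison. Of all genes, 1.18% of 9616 were called with torin 1 in control, 1.77% of 9615 with torin 1 in Ctu1 iKO, 0.0% of 10117 between the genotypes with DMSO (380 at an unadjusted p under 0.05, and 21 by DESeq2) and 0.114% of 9644 between the genotypes with torin 1. At an unadjusted p under 0.05, 1 member passed in 1 comparison (Fasn with torin 1 in Ctu1 iKO, where 9.1% of all genes passed), and DESeq2 called none. Fasn had log2 ratios of footprint to transcript CPM of 0.33, 0.44 and 0.47 in control with DMSO and -0.07, -0.03 and 0.26 with torin 1, without overlap, and the fitted log2 difference was -0.33 (SE 0.28, adjusted p = 0.959). In Ctu1 iKO its ratios were 0.25, 0.49 and 0.65 with DMSO and 0.13, -0.24 and 0.13 with torin 1, and the difference was -0.48 (SE 0.21, adjusted p = 0.516). Fads1 had the largest difference with torin 1 in Ctu1 iKO, at -0.55 (SE 0.27, adjusted p = 0.575), where in replicates 1 to 3 its footprint difference was -0.22 and its transcript difference 0.33.

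Scd2 and Elovl6 stood on the other side, with log2 efficiency differences of 0.29 (SE 0.32) and 0.37 (SE 0.25) with torin 1 in Ctu1 iKO. With all replicates as labelled both turned, to -0.04 and -0.14, and Srebf1 went from -0.16 to 0.23. Between the genotypes, Srebf1 then went from 0.09 to -0.21 with DMSO and Elovl6 from 0.24 to -0.17 with torin 1, and no member was called. Between the genotypes with DMSO the efficiency of Elovl6 differed by -0.25 (SE 0.18) and that of Fads2 by -0.13 (SE 0.15), against footprint differences of -0.68 and -0.49 in replicates 1 to 3. The SEs of efficiency differences were 0.14 to 0.35 over the 9 genes and 4 comparisons in the main fit, which has no term for the culture. With a block for the culture they were 0.10 to 0.24. Fasn with torin 1 then gave -0.34 (SE 0.12, adjusted p = 0.405) in control and -0.47 (SE 0.16, adjusted p = 0.252) in Ctu1 iKO. This block called no member, where 1.16% of all genes were called with torin 1 in control and 2.03% in Ctu1 iKO. A value that misses the threshold does not show that efficiency was equal. The scaling by library totals moved the median of all genes in efficiency with torin 1 from 0.03 to 0.16 in control and to 0.20 in Ctu1 iKO, and called no member.

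**Figure D4:**
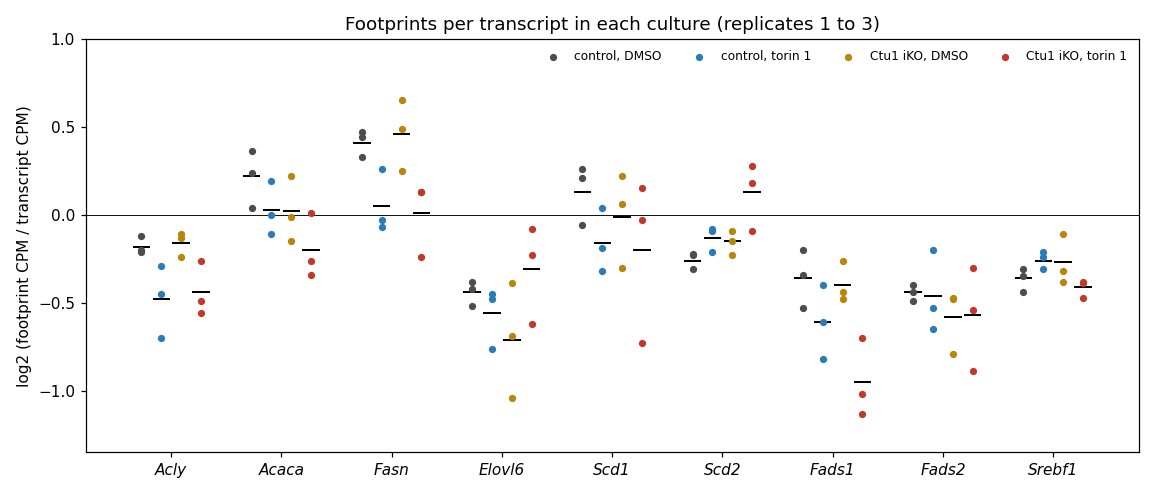
log2 ratio of footprint CPM to transcript CPM (y axis) of each gene in the cultures of replicates 1 to 3; points are cultures, lines the group means (n = 3). Fasn has its lower ratios with torin 1 in both genotypes (means 0.41 and 0.05 in control, 0.46 and 0.01 in Ctu1 iKO), and no difference of a gene passed the threshold.

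The codons read by the tRNAs that Ctu1 modifies are not frequent in these genes. Over 9588 genes with a coding sequence in GENCODE M21, AAA, GAA and CAA together made up a median of 6.13% of codons and AAA alone 2.19%. Only Acaca (6.95%) and Elovl6 (6.37%) lay above the median of the sum, and only Elovl6 (3.0%) above that of AAA. Srebf1 (2.38%), Scd2 (2.79%), Fads2 (2.93%), Fads1 (3.36%) and Fasn (3.47%) lay in the lowest 17.6% of genes for the sum, and Scd1 (4.23%) and Acly (4.49%) lay in the lowest 30.3%. The members called lower in Ctu1 iKO with DMSO thus stood at the 52.5th (Elovl6) and 11.5th (Fads2) percentile. For each of these and for Srebf1, which was not called between the genotypes with DMSO, the stretch of 30 codons with the most AAA, GAA and CAA codons is shown, with those codons in capitals (codons 1 to 30 of 267 in Elovl6, 161 to 190 of 444 in Fads2 and 10 to 39 of 1134 in Srebf1), since they are the codons the targeted enzyme serves:
Elovl6: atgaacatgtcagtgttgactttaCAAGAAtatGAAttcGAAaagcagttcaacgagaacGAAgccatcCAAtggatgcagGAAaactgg
Fads2: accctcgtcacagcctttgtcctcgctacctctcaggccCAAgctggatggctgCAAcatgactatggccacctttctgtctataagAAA
Srebf1: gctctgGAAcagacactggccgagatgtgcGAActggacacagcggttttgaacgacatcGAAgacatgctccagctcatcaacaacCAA
Elovl6 holds 7 such codons in its stretch, none of them AAA, Srebf1 holds 4, and Fads2 holds 3.

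Across the 23 footprint libraries the 9 genes did not move as a single group. Of the 36 pairs, the highest Pearson correlations of log2 CPM were 0.95 for Scd1 and Scd2, 0.86 for Acaca and Acly, 0.85 for Fasn and Acly and 0.85 for Fads1 and Scd2, and the lowest were -0.44 for Scd1 and Acaca and -0.44 for Srebf1 and Elovl6. These are descriptions over libraries that share groups and depth, and Scd1 and Scd2 also share sequence. The genes outside the pathway whose footprints most resembled the mean of the 9 standardized profiles were Khsrp (r = 0.911), Fkbp11 (r = 0.902) and Slc7a6 (r = 0.896), of 8810 genes compared over 23 libraries. Summed over the 9 genes, footprints came to 2967 ± 316 CPM in control with DMSO (SD, n = 6), 2165 ± 156 with torin 1 (SD, n = 6), 2318 ± 117 in Ctu1 iKO with DMSO (SD, n = 5) and 1871 ± 136 with torin 1 (SD, n = 6). Fasn, Scd2 and Acly carried most of this sum.

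Of 48 other genes of fatty acid and glycerolipid synthesis and its control, 40 were listed with DMSO and 39 in both tables. Lpin1, which makes diacylglycerol from phosphatidate, rose with torin 1 in footprints of control (log2 0.81, SE 0.15, adjusted p = 0.00274) and Ctu1 iKO (1.15, SE 0.32, adjusted p = 0.040) and in transcripts of control (1.11, SE 0.06, adjusted p = 0.000401) and Ctu1 iKO (1.22, SE 0.11, adjusted p = 0.00323). It was the only gene of the list called higher in any comparison. In footprints, 1 of 39 was called higher and 0 lower with torin 1 in control, where 2.91% and 4.33% of all genes were. In Ctu1 iKO 1 of 39 was called higher and 1 lower, where 3.48% and 4.52% of all genes were, the latter being Mlx, a partner of glucose-responsive transcription factors (-0.63, SE 0.17, adjusted p = 0.0355). With DMSO, 1 of 40 was called lower in Ctu1 iKO, where 1.04% of all genes were, namely Acsl3, which activates long-chain fatty acids (-0.52, SE 0.10, adjusted p = 0.0145), and with torin 1 none of 39 was, while 5 passed at an unadjusted p under 0.05, where 18.8% of all genes did.

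In transcripts, the dehydratase of elongation Hacd3 (-0.32, SE 0.07, adjusted p = 0.0221) and the acyltransferase Agpat5 (-0.31, SE 0.06, adjusted p = 0.0158) fell with torin 1 in control, and Insig1, which retains SREBP precursors in the endoplasmic reticulum, fell in Ctu1 iKO (-0.31, SE 0.08, adjusted p = 0.0489), out of 38 genes tested. With Lpin1 these were 1 called higher and 2 lower in control, where 5.69% and 7.4% of all genes were, and 1 higher and 1 lower in Ctu1 iKO, where 3.73% and 4.52% were, so the list's shares lay near or below those of all genes. Between the genotypes, edgeR called none of 39 transcripts with DMSO and none of 38 with torin 1, where 9 and 6 passed at an unadjusted p under 0.05, beside 24.4% and 20% of all genes, so neither count stood above the share of all genes. The medians of this list were -0.09 and -0.03 in footprints with torin 1 in control and Ctu1 iKO, where those of the 9 members were -0.32 and -0.16.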

How the data were processed

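The authors deposited counts per gene and library as raw counts, with no normalization. Per the labels and the paper's methods, footprint reads were trimmed (cutadapt 3.4), stripped of rRNA reads and counted per gene with STAR 2.5.3a, with UMI-tools 1.1.1 named for molecular identifiers, on mouse genome mm10 per the labels, while the methods name a human genome. Every deposited RNA count was even, for which the sources used here give no reason. An entry is listed only if some library had at least 100 footprint counts, and 11 repeated symbols were left out.

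A gene entered a test where its mean count reached 10, and testing was done with edgeR 4.0.16 (R 4.3.3, TMM factors, quasi-likelihood test, no replicate term), and p-values were adjusted over all genes tested by the Benjamini-Hochberg method. Efficiency was an interaction of assay and group in 1 model. CPM uses TMM-scaled totals of the shared genes. DESeq2 1.42.0 was an alternative, beside library totals, other count filters, a block for the replicate number, a term for replicates 1 and 2, all 4 groups in 1 fit and leaving out each library. The replicate numbers paired the samples in all transcript comparisons and, for footprints, with torin 1 in control and between genotypes with torin 1 (every pair correlated above 0.1). With torin 1 in Ctu1 iKO (lowest r -0.033) and between genotypes with DMSO (lowest r -0.10) they did not. The fits were tested on simulated data.

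Sources name both 2 biological replicates and larger n, so p-values measure the spread between these samples, which may be partly technical. All 9 members, the called genes of the pathway list (at most 5 a comparison) and the 3 most similar genes are named. Members and lists were chosen with earlier results of these data known. Coding sequences came from GENCODE M21 (1 transcript a gene), and tables and figures were made with Python 3.11.15, numpy 2.4.6, pandas 2.3.3 and matplotlib 3.10.9.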

Additional observations from a re-analysis of the deposited data

Results flagged for a closer look

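The footprint value of Fads1 in Ctu1 iKO with torin 1 replicate 1, 145 CPM, stood apart from the other libraries of its group, the nearest of which had 95.2 CPM (gap over range 0.735, where 0.625 is the limit for 6 libraries). It was the only group above the limit of 36 groups of footprint values tested, and chance puts about 1 in 20 groups above it. The same library had the highest Scd1, Scd2, Fads2, Elovl6 and Srebf1 values and the lowest Acly, Acaca and Fasn values of its group. It also had the lowest total of all footprint libraries, 4585297 counts. Replicate 1 also held the highest Fads1 value of each other group, at 170.5 CPM in control with DMSO, 173 in control with torin 1 and 146 in Ctu1 iKO with DMSO. Without Ctu1 iKO torin 1 replicate 1, the log2 difference of Fads1 footprints with torin 1 in Ctu1 iKO went from -0.26 (edgeR adjusted p = 0.388) to -0.41 (adjusted p = 0.0438). That fit kept the DMSO library of the same number.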

How the results depend on the processing

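No member's log2 change turned its sign and passed the threshold under any alternative, and both other count filters changed no call. The number of members called differed between settings, as did the share of all genes called, given in parentheses, and the cause was not tested. For footprints, torin 1 in control gave 2 called members (7.24%), against 7 with the replicate block (20.5%), 5 with a term for replicates 1 and 2 (12.4%), 4 by DESeq2 (10.8%) and 0 in replicates 1 to 3 (1.4%). With all 4 groups in 1 fit the number stayed at 2, but Scd2 was lost (adjusted p = 0.144) and Elovl6 gained (adjusted p = 0.0437), and with library totals Srebf1 took the place of Scd2. Torin 1 in Ctu1 iKO gave 1 (8.0%), against 2 with library totals (9.1%) and 3 with the term for replicates 1 and 2 (13.9%). Ctu1 iKO against control with DMSO gave 2 (2.66%), against 5 with that term (7.09%) and 0 in replicates 1 to 3 (0.0192%). With torin 1 it gave 0 (4.83%), against 5 with the replicate block (14.4%), 1 with the term for replicates 1 and 2 (9.22%), 2 by DESeq2 (8.49%) and 1 with all 4 groups in 1 fit (8.54%).

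For transcripts, torin 1 in control gave 2 called members (13.1%), against 6 with the replicate block (43.7%), 4 with the term for replicates 1 and 2 (31.4%), 4 by DESeq2 (20.4%) and 4 with all replicates as labelled (9.51%). Torin 1 in Ctu1 iKO gave 1 (8.25%), against 3 with library totals (9.76%), 5 with the replicate block (35.1%), 5 with the term (23.7%), 4 by DESeq2 (16.7%), 3 with all 4 groups in 1 fit (17.9%) and 0 with all replicates as labelled (0.0%). Ctu1 iKO against control with DMSO gave 2 (5.12%), against 5 with the replicate block (28%), 5 with the term (25.9%), 4 by DESeq2 (15.1%) and 4 with all replicates as labelled (26.4%). With torin 1 it gave 0 (1.31%), against 5 with the replicate block (32.8%), 1 with the term (13%), 1 by DESeq2 (11.3%) and 1 with all 4 groups in 1 fit (10.1%). No setting called a member in an interaction or in translational efficiency.

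Leaving out 1 library at a time gave, for footprints, 1 to 3 called members with torin 1 in control, 1 to 2 with torin 1 in Ctu1 iKO, 2 to 3 between genotypes with DMSO and 0 to 2 with torin 1. For transcripts it gave 0 to 2, 0 to 1, 0 to 2 and 0 to 0 in the same order. The footprint numbers with torin 1 in Ctu1 iKO and between genotypes with DMSO did not pair the samples by the rule used, and the replicate block gave 1 (9.98%) and 3 (3.47%) called members there, the latter with Scd2 added (-0.43, adjusted p = 0.0414). Levels set by library totals stayed within 1 SD for 72 of 72 group means. With 3 libraries a group, each transcript call was lost in at least 1 fit that left out a library.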
